A study of Mus musculus with 13 samples.

Results

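The proteasome genes were followed in single hypothalamic microglia of C57BL/6J mice fed a control diet or a high-fat diet (HFD, 60% fat). Members were the genes of the filtered count table whose symbol begins with Psm, a letter from a to g and a number, leaving out symbols marked as pseudogenes. There were 49 such genes of 17280. Of these, 47 encode proteasome subunits, activators, assembly chaperones or an inhibitor. The other members were Psme2b, a near-identical copy of Psme2, and Psmc3ip, a protein named for its partner PSMC3. Neither was counted in a class.

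Microglia had been sorted as single CD45lo CD11b+ cells from male mice into 13 plates of 192 wells and sequenced by CEL-Seq2, a method that counts the 3′ end of each transcript once through a molecular tag. Diets were taken from the authors' well table. Control animals received standard chow, and the HFD lasted 1 day, 3 days, 1 week, 4 weeks, 9 weeks or 16 weeks. The GEO labels name only a comparison of normal chow with HFD for every plate and a treatment of 3 days. The cell names also carry a number of weeks whose meaning the labels do not give, and whether a replicate identifier stands for 1 mouse is not stated, so p-values measure a spread that may be technical. Of 2496 wells, 1617 held at least 1500 transcripts. They comprised 722 control wells, 161 at 1 day, 121 at 3 days, 172 at 1 week, 128 at 4 weeks, 82 at 9 weeks and 231 at 16 weeks. Transcripts were summed over the wells of 1 replicate, diet and plate, which gave 68 sums of 44 replicates with 22774 to 219199 transcripts each. Each sum entered the tests as a sample, so p-values measure the spread between sums, some of which repeat a replicate on another plate. The 28 control sums came from 19 replicates on 12 plates, plate 5 having none. On plate 1 the only control sum, of L1, pooled wells named 10 weeks and 4 weeks. The 3-day sums numbered 6, from 4 replicates on plates 4, 5 and 13. Levels are given as CPM, counts of transcripts scaled to the same total over the filtered genes in every sum. Since each transcript gives 1 tag, levels of different genes need no scaling by length. Whether transcripts of different genes were captured and assigned equally well was not tested. Transcripts of the 8 microglial markers were detected in 100% of wells of every diet and made up 25957 to 35626 CPM in the control sums and 21689 to 36023 CPM in the HFD sums. Markers of other cells were sparse in control, with medians of 97.6 CPM for oligodendrocytes (up to 207), 40.1 CPM for endothelial cells (up to 131), 23.8 CPM for border macrophages (up to 140) and 14.8 CPM for monocytes (up to 60.2), and none of the neutrophil gene S100a9. In single HFD sums they were higher. Border macrophage markers reached 423 CPM at 3 days, monocyte markers reached 627 CPM at 3 days and 1093 CPM at 1 week, and S100a9 reached 12948 CPM in 1 of the 4-week sums. The 4 MHC class II genes had a median of 16.9 CPM in the control sums and up to 717 CPM, and reached 10960 CPM at 3 days, 9834 CPM at 1 week and 20072 CPM at 4 weeks. They were detected in 7.89% of control wells and in 57.8% of 3-day wells. The control share is pooled over 12 plates, whereas the 3-day wells lay on plates 4, 5 and 13 alone. Wells with at least 5 MHC class II transcripts numbered 33 on plates 4 and 5 and 8 on all other plates. The contrast therefore mixes diet with plate. The part of border macrophage, monocyte and neutrophil markers in the values below was not tested. Class sums at 3 days and 4 weeks are also given without MHC class II wells.

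The proteasome degrades proteins marked with ubiquitin. Its 20S core is a barrel of alpha rings, which gate the entrance, and beta rings, which hold the catalytic sites. The 19S regulatory particle caps the core, and its ATPase subunits unfold substrates and feed them in. Interferon-inducible catalytic subunits, encoded by Psmb8, Psmb9 and Psmb10, can replace the constitutive ones to form the immunoproteasome, which with the PA28 activator (Psme1 and Psme2) is known for producing peptides for MHC class I.

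In control microglia the 47 genes together took 3235 ± 391 CPM (SD, n = 19 replicates), or 0.323% of transcripts. The 19S genes held 1252 ± 183 CPM over 17 genes and the constitutive 20S core 1065 ± 214 CPM over 15 genes. The 4 activator genes held 391 ± 105 CPM and the 3 immunoproteasome genes 325 ± 86.0 CPM. The 8 assembly genes held 202 ± 57.5 CPM. A median of 9 transcripts of the 47 genes was counted per well, and 99.8% of the kept wells held at least 1. Single genes were much sparser, and even the highest member, Psmb8, was detected in 32.7% of control wells. At this depth, which cells express a given subunit was not detectable.

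**Figure D1:**
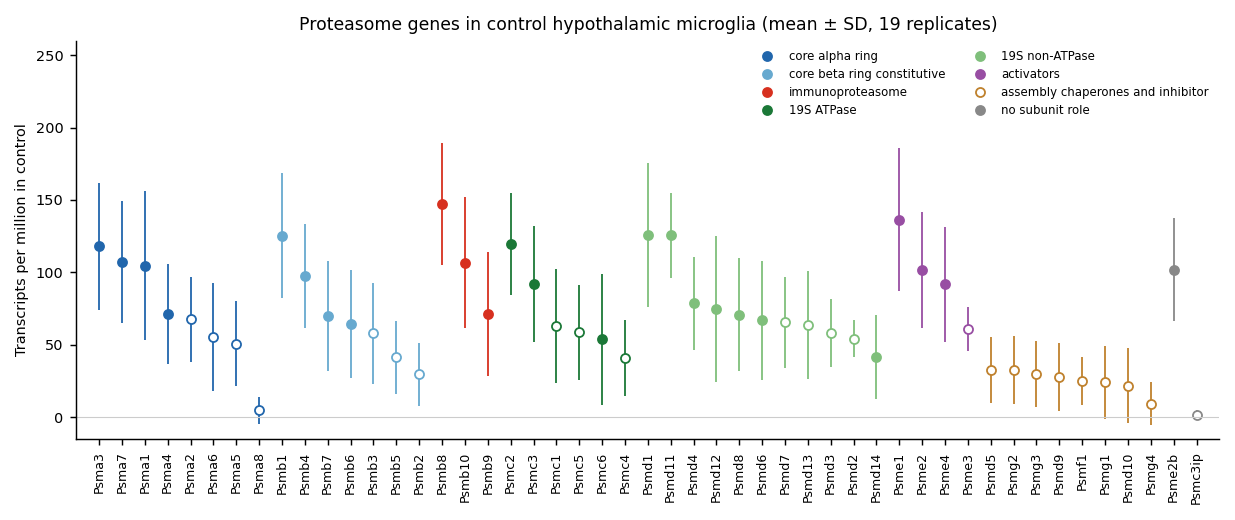
Level of each of the 49 proteasome genes in control microglia, in CPM, as the mean and SD over 19 replicates, coloured by role. Filled points mark the 25 genes that passed the filter on low counts. Psmb8 (147 CPM) and Psme1 (136 CPM) were the highest, and assembly genes were among the lowest.

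In the alpha ring, Psma3 had the highest mean (118 ± 43.8 CPM), followed by Psma7 (107 ± 42.0 CPM). These 2 levels differed by less than the SD between replicates. Psma8, a testis-type alpha subunit, was counted 10 times in all control wells. In the constitutive beta rings, Psmb1 (125 ± 43.2 CPM) and Psmb4 (97.4 ± 35.7 CPM), neither of which is catalytic, were the highest. Among the 19S ATPases, Psmc2 (120 ± 35.0 CPM) and Psmc3 (92.0 ± 40.3 CPM) led. Among the other 19S subunits, Psmd1 (126 ± 49.5 CPM), a large scaffold subunit, and Psmd11 (126 ± 29.4 CPM) led and differed by less than their SD. The assembly genes were low throughout, and the highest, Psmd5 and Psmg2, reached 32.7 ± 22.8 and 32.5 ± 23.3 CPM.

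The 3 interferon-inducible catalytic subunits were set against the constitutive subunit each replaces. At the beta 5 site, which cleaves after hydrophobic residues, Psmb8 stood at 147 ± 41.9 CPM and Psmb5 at 41.2 ± 25.4 CPM in control, a ratio of 3.57. Psmb8 was the higher of the pair in 19 of 19 replicates (permutation test over replicates, two-sided, p = 2e-05, the smallest the resamples can give; adjusted p = 6e-05 over 3 pairs). At the beta 2 site, with trypsin-like activity, Psmb10 (107 CPM, from 46.0 to 214) was 1.53 times as high as Psmb7 (69.7 ± 37.9 CPM). Psmb10 was the higher in 13 of 19 replicates (permutation p = 0.013, adjusted p = 0.0195). At the beta 1 site, with caspase-like activity, Psmb9 (71.0 ± 42.8 CPM) and Psmb6 (64.1 ± 37.4 CPM) differed by 6.86 ± 62.7 CPM. Psmb9 was the higher in 8 of 19 replicates, with 3 ties (permutation p = 0.644). The comparison was chosen after the levels had been seen. When only sums of at least 10 wells were used, the adjusted p of the Psmb10 pair was 0.0587.

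In replicates that did not enter that test, the 25 HFD replicates, Psmb8 was again above Psmb5 in 25 of 25, at 158 ± 52.5 against 39.0 ± 21.8 CPM. Psmb10 was above Psmb7 in 17 of 25, with 6 of 6 at 1 day, 1 of 4 at 3 days, 4 of 5 at 1 week, 1 of 3 at 4 weeks, 1 of 2 at 9 weeks and 4 of 5 at 16 weeks. Psmb9 was above Psmb6 in 4 of 25, at 53.3 ± 23.4 against 81.6 ± 30.9 CPM, the other way from the control means. Values within 0.05 CPM were counted as ties, of which the beta 2 pair had 2 and the beta 1 pair 4. Together the 3 inducible genes made up 65.6 ± 9.93% of the transcripts of these 6 catalytic genes in control (n = 19), and 63.8 ± 17.9% after 3 days of HFD (n = 4). The ranges overlapped, running from 47.4% to 88.2% in control and from 39.5% to 81.1% at 3 days. Means at the other lengths lay between 58.2% at 4 weeks and 65.4% at 16 weeks. The last 300 bases of the Psmb5 transcript have a processed pseudogene copy, Gm3375, at 99.6% identity over 227 bases, and those of Psmb7 share 255 bases with Nek6. Whether the counting lost or added reads for Psmb5 or Psmb7 through these was not tested.

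**Figure D2:**
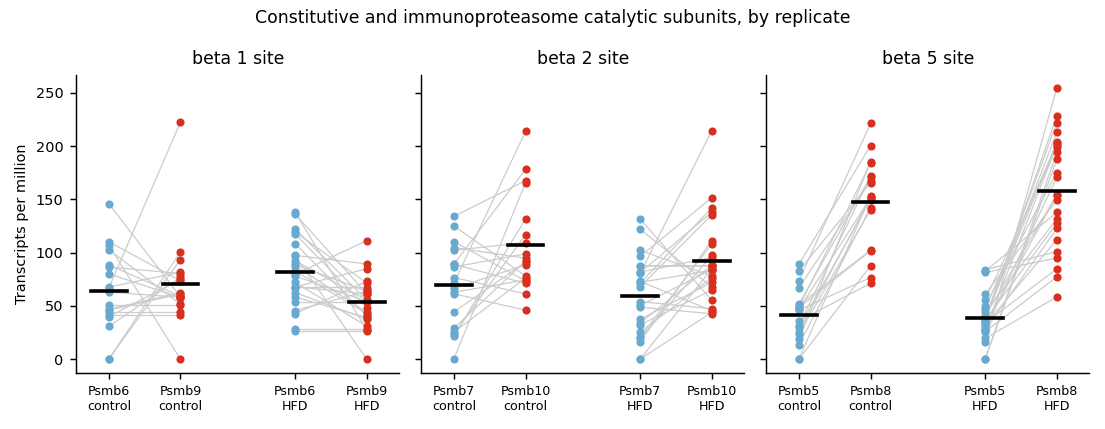
Levels in CPM of each constitutive catalytic subunit (blue) and its interferon-inducible counterpart (red) in 19 control and 25 HFD replicates. Lines join the values of a replicate and black bars give means. Psmb8 lay above Psmb5 in every replicate of both diets, whereas the other pairs crossed.

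The inducible subunits differ in where they lie. Psmb9 (chromosome 17, 34181987 to 34187764, GRCm38) and Psmb8 (34197721 to 34201454) flank the peptide transporter gene Tap1 in the MHC locus. Psmb9 and Tap1 are transcribed away from each other and overlap at their starts. Psmb10 lies on chromosome 8 (105935735 to 105938444). RefSeq promoters of 250 bases before and 50 after the start were searched on both strands in GRCm38.p6. The gene spans above are from GENCODE and cover all its transcripts, and the RefSeq starts of all 4 genes shown lie inside them. Other starts were not searched. They are shown for the 3 inducible genes and for Psmb5, the subunit with the largest contrast to its counterpart: Psmb8 at chr17:34197945-34198244 (plus strand), Psmb9 at chr17:34187281-34187580 (minus strand), Psmb10 at chr8:105938343-105938642 (minus strand) and Psmb5 at chr14:54617946-54618245 (minus strand). Capitals mark a match to a gamma-activated site, TTCNNNGAA (Psmb8), or to the core of an antioxidant response element, TGACNNNGC (Psmb5).
Psmb8: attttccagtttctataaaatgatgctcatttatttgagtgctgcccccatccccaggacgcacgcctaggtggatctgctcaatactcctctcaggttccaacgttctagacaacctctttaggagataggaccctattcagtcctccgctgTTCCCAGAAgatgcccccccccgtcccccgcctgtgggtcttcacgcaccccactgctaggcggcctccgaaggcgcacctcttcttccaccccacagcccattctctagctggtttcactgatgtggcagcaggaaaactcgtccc
Psmb9: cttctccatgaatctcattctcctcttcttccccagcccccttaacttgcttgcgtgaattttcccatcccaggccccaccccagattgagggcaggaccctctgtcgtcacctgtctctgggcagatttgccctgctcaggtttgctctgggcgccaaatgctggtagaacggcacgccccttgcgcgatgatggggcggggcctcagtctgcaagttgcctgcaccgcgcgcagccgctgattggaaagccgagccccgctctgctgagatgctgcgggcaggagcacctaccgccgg
Psmb10: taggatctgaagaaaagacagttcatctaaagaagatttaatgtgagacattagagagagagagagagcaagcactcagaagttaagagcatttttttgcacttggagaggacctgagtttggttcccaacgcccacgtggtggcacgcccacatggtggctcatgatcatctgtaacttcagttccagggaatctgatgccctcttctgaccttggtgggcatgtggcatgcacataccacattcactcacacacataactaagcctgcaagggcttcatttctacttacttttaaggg
Psmb5: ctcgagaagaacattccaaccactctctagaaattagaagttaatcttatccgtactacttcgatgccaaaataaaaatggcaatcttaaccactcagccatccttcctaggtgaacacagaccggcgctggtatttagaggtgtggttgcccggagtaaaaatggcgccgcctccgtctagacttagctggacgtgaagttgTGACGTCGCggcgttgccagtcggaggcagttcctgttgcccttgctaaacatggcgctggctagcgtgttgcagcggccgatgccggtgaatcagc

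The gamma-activated site letters were found in 8.47% of 27025 mouse promoters and in 3 of 39 promoters of the 47 classed genes, Psmb8, Psmd2 and Psmg1. The core of the interferon-stimulated response element, GAAA, any 2 bases and GAAA again, was found in 3.49% of all promoters, in 5 of 39 promoters of the 47 classed genes and in none of these 4. The 5 were Psmb3, Psmd4, Psmd9, Psmg4 and Psme1, the first subunit of PA28. The antioxidant core, a motif of the NRF factors that are known to raise proteasome genes, was found in 12.5% of all promoters and in 6 of those 39. GC boxes (GGGCGG) stood in 59.0% of those 39 promoters and in 35.9% of all. A match describes the letters and is not a site.

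The effect of the diet was tested in 3189 genes that passed the filter on low counts, with plate as a term of the model. Of the 49 members, 25 passed: 4 alpha, 4 constitutive beta, 3 immunoproteasome, 3 ATPase, 7 other 19S and 3 activator genes, and Psme2b. The other 24, among them Psmb5 and all 8 assembly genes, did not pass. Passing did not follow the mean control level. Psmd14 (41.3 CPM) and Psmc6 (53.6 CPM) passed, whereas Psma2 (67.5 CPM) and Psmd7 (65.4 CPM) did not. No member was called at any length of HFD in edgeR (quasi-likelihood, p adjusted after Benjamini and Hochberg over all genes). The background was as low, and the share of all genes called was 0% at 1 day, 3 days, 1 week and 9 weeks, 0.0941% at 4 weeks and 0.0314% at 16 weeks. At an unadjusted p under 0.05, 0 of 25 members passed at 3 days against 4.83% of all genes, 1 of 25 at 4 weeks against 4.08% and 3 of 25 at 16 weeks against 4.74%. At 1 day, 1 week and 9 weeks it was 0 of 25, against 4.58%, 3.73% and 5.58% of all genes. DESeq2 and limma called no member in any length either.

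**Figure D3:**
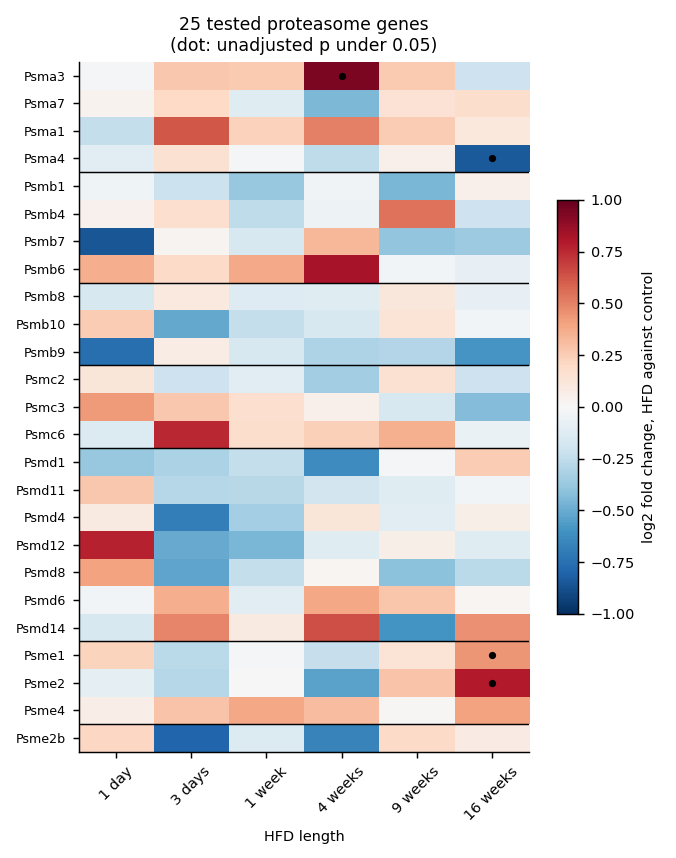
Log2 fold change of the 25 tested proteasome genes (rows, grouped by role) at each length of HFD against control, with plate in the model. Dots mark an unadjusted p under 0.05. The 4 dots are Psma3 at 4 weeks and Psma4, Psme1 and Psme2 at 16 weeks.

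The directions of the 25 members were mixed. Log2 fold changes were above 0 in 13 of 25 members at 1 day, 7 of 25 at 1 week, 11 of 25 at 4 weeks, 15 of 25 at 9 weeks and 11 of 25 at 16 weeks. Among all genes these shares were 51.1%, 49.2%, 50.5%, 48.9% and 48.7%. The members' median was lowest at 1 week, at -0.12, against -0.01 over all genes.

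A member was next counted where every HFD sum lay on 1 side of its plate's control mean. At 1 day 1 of 25 members lay below in all 6 sums (4.74% of all genes), Psmb9, and none lay above (3.64%). At 1 week none lay above (5.96%) or below (4.33%), and at 9 weeks none lay above (1.57%) or below (3.89%). At 4 weeks, with 3 sums, 4 of 25 lay above (18.6%) and 6 of 25 below (18%). At 16 weeks 1 of 25 lay above in all 10 sums (0.125%) and none below (0.251%).

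After 3 days of HFD, the length named in the GEO labels, the 25 members had a median log2 fold change of 0.08, with 14 above 0 and 11 below. Over all genes the median was 0.02, and 52.5% were above 0. The 3 members with the smallest p were Psme2b (log2 fold change -0.80, SE 0.45, p = 0.0814), Psma1 (0.62, SE 0.36, p = 0.0882) and Psmd4 (-0.70, SE 0.44, p = 0.117), each with an adjusted p of 0.987. The value of Psme2b was -0.46 without replicate M17, -1.10 without M25 and -1.55 when only control and 3-day sums were fitted. Psma1 is an alpha ring subunit, and Psmd4 is a ubiquitin receptor of the 19S particle.

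For Psma1 the 3-day sums read 72.2 and 18.9 CPM on plate 4, 119 and 198 CPM on plate 5, and 176 and 175 CPM on plate 13. The controls read 101 CPM on plate 4 and 46.8, 214, 101 and 0 CPM on plate 13. The direction differed between plates, and the groups overlapped on plate 13. For Psmd4 the 3-day sums read 41.3 and 94.6 CPM on plate 4, 59.4 and 16.5 CPM on plate 5, and 54.2 and 47.7 CPM on plate 13, and the controls read 101 CPM on plate 4 and 70.1, 71.3, 50.7 and 82.8 CPM on plate 13. All 4 of the 3-day sums with controls on their plate lay below the control mean, as did those of Psme2b and Psmb10, a count of 3 members of 25 against 10.9% of all genes. Another 5 members, Psma3, Psma4, Psmb6, Psmc6 and Psme4, had all 4 above, against 13.1% of all genes. The controls of plate 13 carried 14wks or 24wks in their names and its 3-day replicates 14wks. With the 14wks controls alone, the log2 fold change was 0.69 for Psma1 and -0.73 for Psmd4. Psma1 read 0.18 without plate in the model and 0.82 without MHC class II wells (p = 0.029), and Psmd4 read -0.40 with only control and 3-day sums.

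The immunoproteasome genes showed no change that passed the test at 3 days. Psmb8 had a log2 fold change of 0.10 (95% interval -0.46 to 0.66) and Psmb9 of 0.08 (-0.92 to 1.07). Psmb10 had -0.51 (-1.26 to 0.23), and -0.89 with only control and 3-day sums (p = 0.0798). For Psmb8 the 3-day sums read 227 and 199 CPM on plate 4, 193 and 280 CPM on plate 5, and 94.9 and 254 CPM on plate 13. Its control sums read 168 CPM on plate 4 and 140, 71.3, 152 and 166 CPM on plate 13. Both 3-day sums lay above the control on plate 4, and the groups overlapped on plate 13. The log2 fold change of Psmb8 was 0.50 without plate in the model (p = 0.0219) and 0.37 with only control and 3-day sums (p = 0.359). The constitutive Psmb6 (0.19, 95% interval -0.74 to 1.12) and Psmb7 (0.03, -0.91 to 0.98) had values near 0. The intervals of Psmb9 and Psmb10 reached past 1 log2 unit in 1 direction, and that of Psmb8 did not.

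Summed by class, the 20S core was higher after 3 days in 4 of the 4 sums that had controls on their plate, by 255 CPM with plates 4 and 13 weighted equally. On plate 13 the 3-day sums held 1241 and 1342 CPM and the 4 control sums 621 to 962 CPM, without overlap. Plate 13 had the lowest control mean of the 12 plates (840 CPM), and the 3-day values lay inside the range of all 19 control replicates, 621 to 1445 CPM. On plate 4 they held 927 and 1001 CPM against 905 CPM in the only control sum, of 7 wells. For scale, control sums of 1 plate differed by an SD of 204 CPM. The difference of the 19S genes was -486 CPM on plate 4 and 197 CPM on plate 13. The immunoproteasome genes likewise gave -105 CPM on plate 4 and 18.4 CPM on plate 13. Without MHC class II wells the 3-day means were 192 CPM for the 20S core, -133 CPM for 19S and -102 CPM for the immunoproteasome genes. The class sums are descriptions and carry no test.

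**Figure D4:**
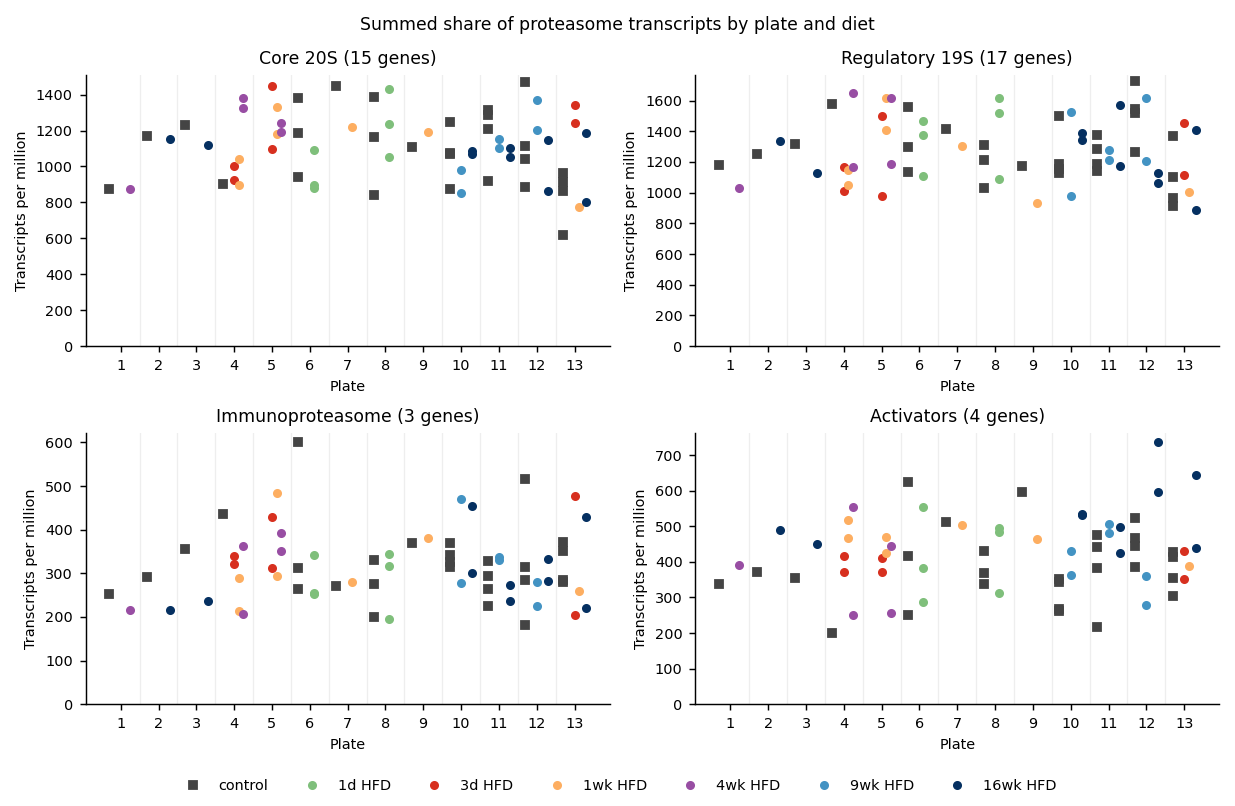
Summed share of transcripts (CPM) of 4 proteasome classes in the 68 sums, by plate. Squares are control sums and circles HFD sums coloured by length. At 3 days the 20S sums of plate 13 (1241 and 1342) lay above all its controls, and at 16 weeks the activators lay above the plate's control mean in all 10 sums.

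At 1 week the 47 genes lay below the plate's control mean in 5 of 5 sums (-287 CPM), as did the 19S genes (-228 CPM), with 3 of the 4 plates resting on a single control sum. The 19S difference was -477 CPM on plate 4, whose control sum held 7 wells. It was -114, -239 and -83.0 CPM on plates 7, 9 and 13. At 4 weeks the 20S core was higher in 3 of 3 sums (226 CPM), as were the activators (127 CPM), and the immunoproteasome genes lower in 3 of 3 (-93.8 CPM). All 3 values rested on the plate 4 control of 7 wells. Without sums of under 10 wells plate 1 alone remained, with 1 sum of each diet, and gave 3.5 CPM for the 20S core, 52.3 CPM for the activators and -35.6 CPM for the immunoproteasome genes. The plate 1 control sum pooled wells named 10 weeks and 4 weeks. Without MHC class II wells the 4-week values were 47.7, 105 and -159 CPM in the same order. At 1 day and 9 weeks none of the 20S, 19S, immunoproteasome and activator sums lay on 1 side of the control mean throughout. Single genes at 4 weeks included Psma3, with a log2 fold change of 0.94 (SE 0.37, p = 0.0134, adjusted p = 0.996). Its 4-week sums read 61.8 CPM on plate 1, 108 and 162 CPM on plate 4, and 304 and 144 CPM on plate 5, against controls of 43.6 CPM on plate 1 and 33.5 CPM, a single transcript, on plate 4. Without plate in the model its log2 fold change was 0.22.

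The 4 activator genes as a sum were higher after 16 weeks of HFD than in control of the same plates. Psme1 and Psme2 form the PA28 ring, Psme3 is PA28 gamma, a nuclear form, and Psme4 is PA200, a single-chain activator. Together they held 524 CPM at 16 weeks and 374 CPM in control as means over 6 plates, a difference of 149 CPM, with 10 of 10 sums above their plate's control mean. The 10 sums came from 5 replicates, L4 being measured on plates 2 and 3 and M5 and M6 on plates 10, 11 and 12, against control replicates that were also shared by those plates. Control sums of 1 plate differed by an SD of 93.6 CPM. Without MHC class II wells the difference was 136 CPM. In single 16-week sums MHC class II genes reached 1616 CPM, monocyte markers 243 CPM and border macrophage markers 221 CPM, above the control maxima. On plates 2 and 3, with 1 sum of each diet, the values were 490 against 372 CPM and 449 against 356 CPM. On plates 10, 12 and 13 the 16-week sums lay above all controls: 531 and 534 against 262 to 353 CPM, 597 and 736 against 387 to 522 CPM, and 439 and 644 against 304 to 428 CPM. On plate 11 they overlapped, at 425 and 498 against 218 to 476 CPM. On plate 13 the 16-week sums carried 24wks in their names, as did controls M11 and M12. Controls M15 and M16 of that plate carried 14wks. The means over plates of the other classes were -31.5 CPM for the 20S core, -36.2 CPM for 19S and -32.3 CPM for the immunoproteasome genes. The 19S differences on single plates ran from -420 CPM on plate 12, where the 16-week sums lay below all controls, to 126 CPM on plate 11.

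Psme2 accounted for the smallest p among the members (log2 fold change 0.79, SE 0.24, p = 0.0014), which gave an adjusted p of 0.557. Its 16-week sums read 83.6 CPM on plate 2 and 77.3 CPM on plate 3, 107 and 116 CPM on plate 10, 105 and 170 CPM on plate 11, 173 and 265 CPM on plate 12, and 176 and 215 CPM on plate 13. The controls read 38.2 and 41.1 CPM on plates 2 and 3, and 52.3 to 127, 22.6 to 172, 25.8 to 167 and 70.2 to 82.8 CPM on plates 10 to 13. All 10 sums of Psme2, from the same 5 replicates, lay above their plate's control mean, as for 0.125% of all genes, whose sums share replicates in the same way. The groups overlapped on plates 10 and 11. Without plate in the model the log2 fold change of Psme2 was 0.43 (p = 0.096). In each of these sums the value rests on few molecules, 89 transcripts of Psme2 in all at 16 weeks.

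Reads of Psme2 and Psme2b could not be separated with certainty, since the last 300 bases of Psme2 match Psme2b at 99.0%. Counted together, the pair had a log2 fold change of 0.47 at 16 weeks (SE 0.20, p = 0.0232, adjusted p = 0.958) and of -0.52 at 3 days (SE 0.32, p = 0.107, adjusted p = 0.987). With Psme2b added, the activators still lay above the plate's control mean in 10 of 10 sums at 16 weeks, by 149 CPM, but on plate 13 the groups then overlapped, at 527 and 697 against 374 to 580 CPM. Psme1 had a log2 fold change of 0.44 (SE 0.21, p = 0.0403, adjusted p = 0.989) and Psme4 of 0.40 (SE 0.24, p = 0.104, adjusted p = 0.989). Psma4, an alpha ring subunit, went the other way (-0.84, SE 0.31, p = 0.00725, adjusted p = 0.904), while the median of the 4 alpha genes was -0.05.

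**Figure D5:**
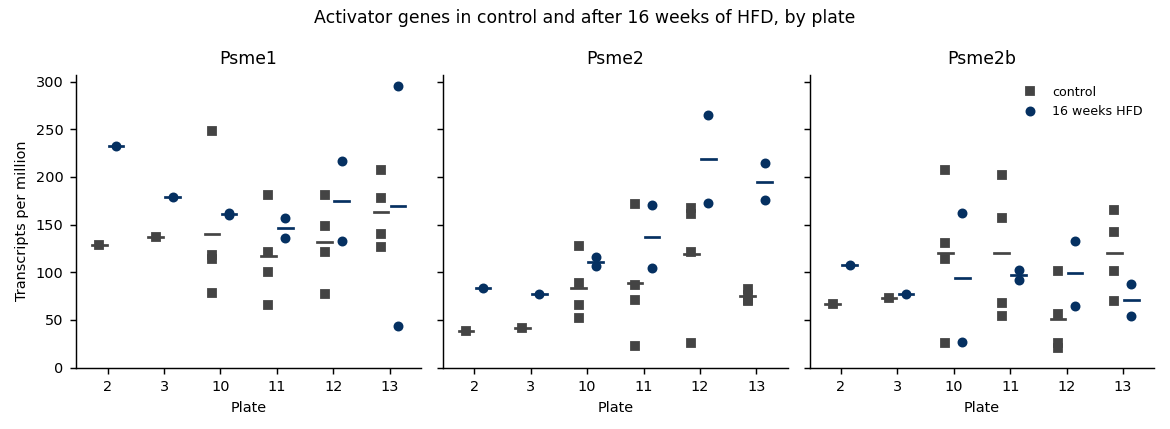
Levels in CPM of Psme1, Psme2 and the copy Psme2b in control sums (squares) and 16-week HFD sums (circles) on the 6 plates that held both. Bars give the mean of each group on the plate. Psme2 means were higher at 16 weeks on every plate, whereas Psme2b means were higher on plates 2, 3 and 12 and lower on plates 10, 11 and 13.

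In the test over all lengths together, Psme2 (p = 0.0407, adjusted p = 0.889) and Psma4 (p = 0.172, adjusted p = 0.997) had the smallest p of the members. None of 25 members was called against 0.0627% of all genes, and 1 of 25 had an unadjusted p under 0.05 against 5.36%. Differences between plates were larger. Of all genes 14.3% differed between plates, and 1 of 25 members did, Psme2 (adjusted p = 0.0104). Its control level was 38.2 CPM on plate 2 and 170 CPM on plate 9, each a single sum. An unadjusted p under 0.05 was found between plates in 6 of 25 members against 24.3% of all genes. On plates 1, 6, 7, 8, 9 and 13, whose replicates are on no other plate, plates and replicates cannot be told apart. Control replicates M1 to M4 were measured on plates 10, 11 and 12, where Psme2 read 88.9, 87.1 and 122 CPM in M1 and 127, 22.6 and 25.8 CPM in M4.

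Genes that work with the proteasome were read beside it. Of 17 tested genes for ubiquitin, shuttle factors, proteasome regulators and their transcription factors, none passed at any length. The smallest p at 3 days belonged to Sqstm1, an autophagy receptor that also binds ubiquitin chains (log2 fold change -0.85, SE 0.31, p = 0.00707, adjusted p = 0.979), and to the polyubiquitin gene Ubb (-0.47, SE 0.20, p = 0.0189, adjusted p = 0.979). At 16 weeks Sqstm1 was again below control (-0.51, SE 0.23, p = 0.0269, adjusted p = 0.964). Of 4 tested genes for interferon-induced antigen processing none passed, with a median log2 fold change of 0.10 at 3 days and 0.03 at 16 weeks. The transporter gene Tap1 had 0.77 at 16 weeks (SE 0.39, p = 0.0501, adjusted p = 0.989).

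Wells with MHC class II transcripts held more immunoproteasome transcripts on plates 4 and 5. There, 33 wells held at least 5 transcripts of MHC class II genes, and their summed immunoproteasome level was 443 CPM (exact Poisson 95% interval 359 to 541, counting error only). The other 164 wells of these plates held 300 CPM (261 to 343). The wells with MHC class II were also deeper, with a median of 6069 against 4320 transcripts, and the part of depth or of another cell type in the difference was not tested. Within replicates the difference was not uniform. It was 425 against 294 CPM in M23 (12 wells with MHC class II), 474 against 275 CPM in M24 (10 wells), 669 against 248 CPM in M20 (3 wells) and 233 against 323 CPM in M21 (5 wells). On the other plates 8 wells with MHC class II held 406 CPM (216 to 694) and 1412 without it 298 CPM (282 to 315), which overlapped in counting error. Other classes also had higher values in the wells with MHC class II of plates 4 and 5, but with counting intervals that overlapped. All 47 genes held 3562 (3314 to 3821) against 3282 CPM (3149 to 3418). The 20S core held 1241 (1097 to 1398) against 1107 CPM (1030 to 1187). The activators held 508 (417 to 612) against 389 CPM (345 to 438). The constitutive catalytic genes held 263 (199 to 341) against 196 CPM (165 to 232). The 19S genes stood at 1204 CPM (1062 to 1359) in these wells and at 1273 CPM (1191 to 1359) in the others. Cells are not replicates, and no test was made.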

How the data were processed

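Single CD45lo CD11b+ hypothalamic microglia were sequenced by CEL-Seq2 in 13 plates. The authors trimmed reads with Cutadapt, mapped them to mm10 with STAR and counted them with featureCounts within snakePipes. The deposited plate tables hold estimated counts, that is, transcripts per gene and well after correction for chance reuse of 4096 molecular tags (100% of values matched whole tag counts within 0.001). Diets came from the authors' table of wells. In the filtered table, 34 columns whose names match no listed sample were not used. Its genes defined the denominator.

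Wells with at least 1500 transcripts were summed by replicate, diet and plate where at least 5 wells remained, and sums were rounded. Replicate identifiers shared by plates 2 and 3, 4 and 5, or 10 to 12 were treated as 1 replicate. Genes were filtered with filterByExpr and tested with edgeR 4.0.16 (TMM, quasi-likelihood, plate and HFD length as terms, all sums in 1 fit, residual degrees of freedom 49), with Benjamini-Hochberg adjustment over all 3189 genes at 0.05. Sums of 1 replicate on linked plates entered as separate samples; limma voom with the replicate as a random block (correlation 0.0248) was 1 alternative, beside DESeq2 1.42.0 and other filters. Class shares were compared within plates, each plate weighted equally, without a test. Members and lists were chosen with earlier results of these data known. Named genes were the immunoproteasome and constitutive catalytic genes, Psme1 and Psme2, the 2 highest members of each role in control, the 3 with the smallest p at 3 days, the 2 with the smallest p over all lengths, and any member called. Psma3 at 4 weeks, Psma8, Psme4, Sqstm1, Ubb and Tap1 were added after their values were seen. Near-identical copies were searched in the last 300 bases of transcripts (GENCODE M21) with blastn at 95% identity over 200 bases, which found copies for 9 members. Promoters came from RefSeq (GRCm38.p6) and matched 41 members. The tests were also run on simulated data.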

Additional observations from a re-analysis of the deposited data

How the results depend on the processing

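No member of the proteasome group was called at any HFD length under any alternative. Over all genes, the number called at 3 days was 0 and became 6 without the filter on low counts and 29 without plate in the model. At 1 day it was 0 and became 3 without plate. At 1 week it was 0 and became 6 without the filter, 16 without plate, 1 with limma voom and 1 with wells of at least 1000 transcripts (0 to 1 when a replicate was left out, M4 deciding). At 4 weeks it was 3 and became 12 without the filter, 23 without plate, 0 with DESeq2, and 1 with DESeq2 size factors, limma voom, wells of at least 1000 transcripts, sums of at least 10 wells or without MHC class II wells (3 to 5 when a replicate was left out, M21 deciding). At 9 weeks it was 0 and became 1 with DESeq2 and 4 without the filter. At 16 weeks it was 1 and became 0 with DESeq2, 4 without the filter and 3 with limma voom (0 to 1 when a replicate was left out, L4 deciding). Over any length it was 2 and became 30 without the filter, and between plates 455 became 885. With sums of at least 10 wells, 2 members differed between plates. The cause was not tested.

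The 3-day fold change of Psmb8 changed sign. It read -0.01 with limma voom, -0.11 to 0.29 when a replicate was left out, being lowest without M18, and 0.50 without plate. That of Psme2 came to 0.00 without plate, against -0.53 to -0.14 when a replicate was left out. Of 190 alternative values of the named fold changes, 187 kept their sign. No member was called in any of these settings, so the count concerns sign alone. It takes no account of size, and Psme2b at 3 days, from -1.10 to -0.46 when a replicate was left out, counted as kept. Of 220 alternative class differences, 212 moved by less than the SD between control sums. That SD is a wide margin, 312 CPM for all 47 genes. Their 16-week difference ran from -68.4 to 122 CPM when a replicate was left out. The count therefore does not show that the sign or size of a class difference was stable. At 3 days, all 47 genes gave 551 CPM with sums of at least 10 wells and the 19S genes 138 CPM. Without control replicate M26 these were 699.6 and 197 CPM. When each replicate was left out, the 3-day differences ran from 80.9 to 699.6 CPM for all genes, -229 to 197 for 19S, 219 to 451 for the 20S core, -112 to 25.3 for the immunoproteasome and 15.8 to 124 for activators. At 4 weeks, all 47 genes gave -308 CPM with the mean of single-well shares and -304 without MHC class II wells, the 19S genes -406 with single-well shares, and the 20S core 3.5 with sums of at least 10 wells. Leaving out a 16-week replicate gave 132 to 171 CPM for activators. The ratio of Psmb10 to Psmb7 was 1.43 with sums of at least 10 wells. Settings chosen after seeing the data were the joint count of Psme2 and Psme2b, the activators with Psme2b, the omission of 16-week replicates from the class sums, the plate 13 controls named 14wks and the catalytic pairs. No paired analysis was possible, because no identifier occurs under both diets on the same or linked plates. Where an identifier such as M2 recurs on unlinked plates, it was treated as another replicate. The only replicate number in the GEO labels is that of the plate. Plate was a term of the model, and the values above were also computed without it.

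Depth limits these values, since the 16-week sums of Psme2 hold 89 transcripts in all and the smallest sum holds 22774 transcripts of all genes.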
